A study of Mus musculus with 6 samples.

Results

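The 10 genes described here form the ATF4-CHOP stress response core: *Atf4*, *Atf3*, *Atf5*, *Ddit3*, *Trib3*, *Chac1*, *Sesn2*, *Ddit4*, *Asns* and *Ppp1r15a*. They were chosen by name from the 24499 genes of the table, without a threshold on any value. All 10 were counted in every library and passed the filter on low counts, as did 13296 genes in all.

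RNA-seq was performed on 6 libraries, 3 from cKO and 3 from control cells. The cKO mice carried the alleles *Eif3e* fl/fl, *Rosa26-YFP* LSL and *Cγ1* Cre on the C57BL/6J background, so that Cre, made when the Ig γ1 constant region is transcribed, removes *Eif3e* from activated B cells and switches on YFP. The labels call the other genotype only control, which in the study's comparison of spleens and lymph nodes is *Cγ1* Cre with *Rosa26-YFP* LSL, and those cells were sorted as YFP+ too, which requires the reporter and an active Cre. Naïve splenic B cells of both genotypes were grown to day 3 on 40LB feeders, a BALB/c 3T3 line carrying CD40L and BAFF that had received 120 Gy, with 1 ng/ml IL-4, and YFP+ in vitro germinal center B cells (iGCBs) were sorted for polyA RNA. The age of the mice and how many went into each library are not given in the sources used here. The sort was on YFP, a reporter of Cre, and not on the loss of *Eif3e* itself, and since Cre follows activation the loss is recent.

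ATF4 is the transcription factor of the integrated stress response. Kinases that sense amino acid shortage, unfolded proteins in the ER, heme shortage or double-stranded RNA phosphorylate the initiation factor eIF2. General protein synthesis then falls, while the *Atf4* mRNA, whose upstream reading frames normally hold ribosomes back, is translated more. ATF4 protein turns on genes for amino acid supply and tRNA charging, and with CHOP, the product of *Ddit3*, it drives a further set that includes *Trib3*, *Chac1* and *Ppp1r15a*. Because this switch acts at translation, the amount of *Atf4* mRNA does not report the amount of ATF4 protein, which was not measured in these libraries.

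Total estimated counts per library ranged from 39079582 to 45504570. *Eif3e* itself, the targeted gene, stood at 173, 150 and 152 CPM (counts scaled to the size of the library) in cKO and at 424, 401 and 392 in control, which left 39.0% of the control level. *Xist*, which is made in female cells, was high in cKO replicate 2 and control replicates 1 and 2 and at 16 counts or fewer in the other libraries, so sex was mixed within both groups. Summed levels of 6 B cell markers were 4464 to 4620 CPM in cKO and 4331 to 4687 in control. Feeder cells could supply fibroblast RNA if some passed the YFP+ sort. The sum of 12 fibroblast markers was 105 to 130 CPM in cKO and 78.6 to 147 in control, with control replicate 3 the lowest. Its members went both ways, with *Fn1* higher (log2 fold change 1.07), *Lox* lower (−1.52) and *Fbn1* at 139 to 207 counts in cKO and 0 in every control library. The part of these RNAs in the members' changes was not tested. That of 5 T cell markers was at most 0.355 CPM in any library. Correlations of log2 CPM over genes were 0.977 to 0.982 within groups and 0.953 to 0.961 between them.

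The *Atf4* mRNA was nearly level between genotypes while the RNA of many genes downstream of it fell. *Trib3*, *Chac1*, *Asns*, *Ddit3* and *Ddit4* were lower in cKO, by 16.2-, 8.74-, 5.83-, 3.59- and 2.64-fold, and *Atf5* was the single member called higher, by 2.72-fold. *Sesn2*, *Atf4*, *Atf3* and *Ppp1r15a* did not pass both cutoffs. A gene was called at an adjusted p under 0.05 and a fold over 1.5 from edgeR's quasi-likelihood test over all genes. By this rule 5 of the 10 members were lower, against 10.6% of all genes tested, and 1 was higher, against 10.4%. Without the cutoff on fold, 8 of the 10 had an adjusted p under 0.05, against 48.6% of all genes. The cKO libraries all lay below the control libraries for 6 members (29.5% of all genes) and all above for 3 (29.2%). Since the members were chosen with earlier results known, these counts describe the group. In bulk RNA, fewer cells of a type and less RNA per cell cannot be told apart.

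**Figure D1:**
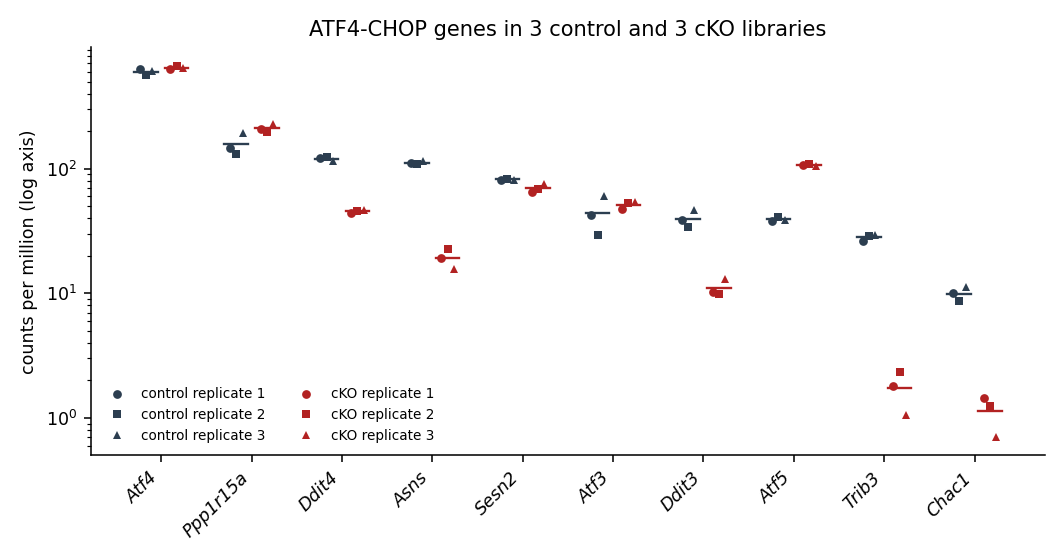
Level of each ATF4-CHOP gene in CPM on a log axis, with control in dark blue and cKO in red, 1 symbol per library and a short bar at the group mean. *Trib3*, *Chac1*, *Asns*, *Ddit3* and *Ddit4* sit lower in every cKO library, *Atf5* sits higher, and *Atf4* lies between 560 and 669 CPM throughout.

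Of the transcription factors, *Atf4* (chromosome 15, 80255184 to 80257541, plus strand, GRCm38) had 634, 669 and 641 CPM in cKO against 627, 560 and 611 in control (replicates 1, 2 and 3 in order, as for all members). Every cKO library was above every control library, but replicate 1 of each group differed by less than the control libraries did among themselves. The log2 fold change was 0.11 (SE 0.053, 95% interval −0.0055 to 0.23), with an adjusted p of 0.105 from edgeR. The interval reached 0 and lay wholly within the cutoff of 1.5-fold.

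*Ddit3* (chromosome 10, 127290774 to 127296288, plus strand) encodes CHOP, a partner of C/EBP proteins that favors cell death under lasting stress. It had 10.3, 9.96 and 12.97 CPM in cKO and 38.9, 33.8 and 46.6 in control. Replicate 3 was the highest of each group, and every cKO library was far below every control. In the fit this was a log2 fold change of −1.84 (SE 0.14), with an adjusted p of 5.9e-06 from edgeR's test.

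*Atf5* (chromosome 7, 44812256 to 44816658, minus strand) is the closest relative of *Atf4*, and its mRNA is under a similar control by upstream reading frames. It had 107, 110 and 105 CPM in cKO and 38.4, 41.1 and 38.8 in control. Both groups were tight, with a coefficient of variation of 2.10% in cKO and 3.64% in control. *Atf5* rose by 1.44 on the log2 scale (SE 0.056), with an adjusted p of 3.4e-07 from edgeR's test. *Atf5* thus moved opposite to *Ddit3*, *Trib3*, *Chac1*, *Asns* and *Ddit4*.

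*Atf3* (chromosome 1, 191170296 to 191218039, minus strand), an early stress-induced repressor and activator, had 47.8, 53.0 and 53.8 CPM in cKO and 42.6, 29.2 and 60.2 in control. Its control libraries spread over 2.06-fold and enclosed all cKO values. The log2 fold change was 0.23 (SE 0.20, 95% interval −0.22 to 0.68) with an adjusted p of 0.384, and it was −0.0044 without control replicate 2 and 0.52 without control replicate 3 (adjusted p of 0.014 from edgeR, under the fold cutoff).

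*Trib3* and *Chac1* are among the targets of ATF4 and CHOP. *Trib3* (chromosome 2, 152337422 to 152344032, minus strand), a pseudokinase that binds AKT and feeds back on ATF4, had 1.81, 2.33 and 1.06 CPM in cKO and 26.3, 28.7 and 29.6 in control. The cKO values rest on 82, 105 and 45 estimated counts and spread over 2.20-fold, while the control libraries lay within 1.13-fold of each other. The log2 fold change was −4.02 (SE 0.22, 95% interval −4.51 to −3.52), with an adjusted p of 1.3e-06 from edgeR, the 11th largest decrease of 13296 genes.

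*Chac1* (chromosome 2, 119351229 to 119354381, plus strand), which breaks down glutathione, had 1.43, 1.24 and 0.707 CPM in cKO and 9.97, 8.62 and 11.1 in control. It was the lowest member in both groups, with 30 to 65 counts per cKO library, and cKO replicate 3 was the lowest library for *Chac1* as for *Trib3* and *Asns*. *Chac1* fell by 3.13 on the log2 scale (SE 0.25), with an adjusted p of 7.0e-06 from edgeR's test. A count of 3 corresponds to 0.0661 to 0.0763 CPM here, well under the lowest *Chac1* value.

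*Asns* (chromosome 6, 7675169 to 7693254, minus strand), asparagine synthetase, is the textbook target of the amino acid response. It had 19.4, 22.8 and 15.6 CPM in cKO against 112, 108 and 116 in control, so that 17.2% of the control level was left. *Asns* fell by 2.54 on the log2 scale (SE 0.12), with an adjusted p of 6.2e-07 from edgeR's test.

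*Ddit4* and *Sesn2* both hold back the growth kinase mTORC1, and they differed in size of change. *Ddit4* (chromosome 10, 59949669 to 59951834, minus strand) had 43.7, 46.1 and 46.8 CPM in cKO against 121, 125 and 115 in control. Its log2 fold change was −1.40 (SE 0.058), with an adjusted p of 3.6e-07 from edgeR's test. *Sesn2* (chromosome 4, 132492032 to 132510501, minus strand) had 65.2, 69.1 and 75.8 CPM in cKO against 81.3, 83.2 and 81.4 in control. All cKO libraries of *Sesn2* were below all controls, by 1.17-fold in the fit, under the cutoff of 1.5 (log2 fold change −0.23, SE 0.063, adjusted p of 0.013 from edgeR). The 95% intervals of the log2 fold changes, −1.53 to −1.27 for *Ddit4* and −0.37 to −0.086 for *Sesn2*, did not meet.

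*Ppp1r15a* (chromosome 7, 45522916 to 45526268, minus strand) encodes GADD34, which brings a phosphatase to eIF2 and ends the response. It had 209, 198 and 227 CPM in cKO and 147, 132 and 195 in control. All cKO libraries were above all controls, but control replicate 3 came close to the lowest of them. Its log2 fold change was 0.42 (SE 0.12), with an adjusted p of 0.016 from edgeR but a fold of 1.34. Without control replicate 3 it was 0.60, and *Ppp1r15a* was then called higher.

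**Figure D2:**
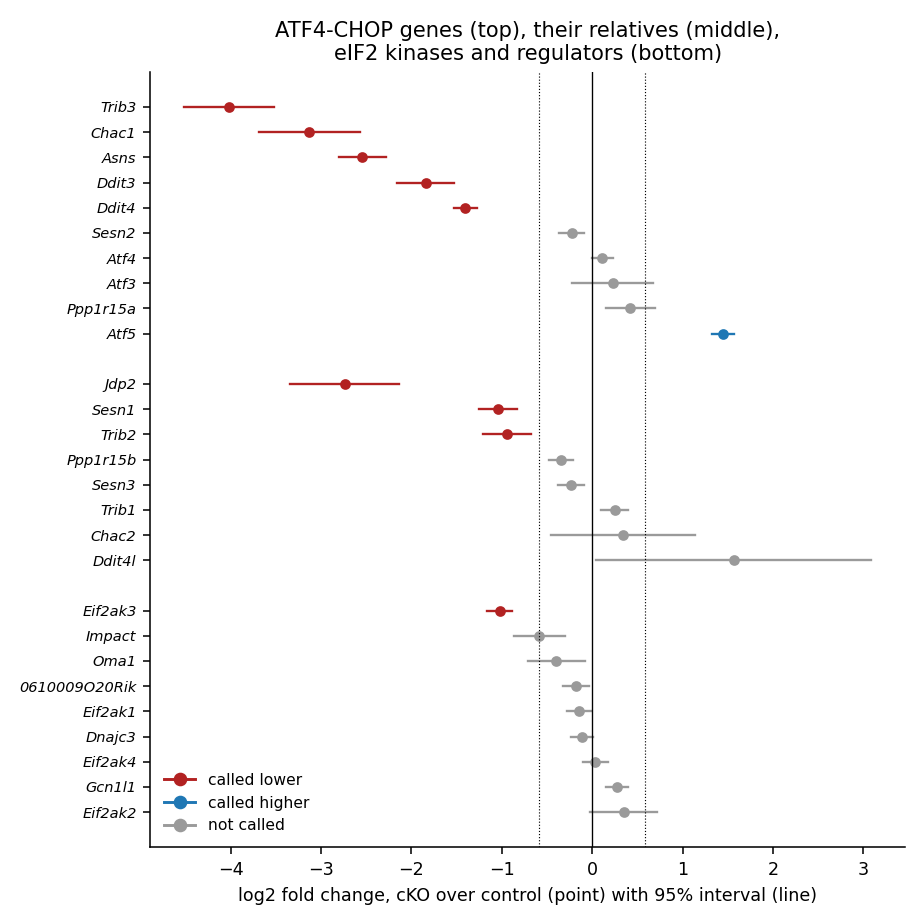
Log2 fold change of cKO over control for the 10 ATF4-CHOP genes (top), 8 relatives of them (middle) and 9 eIF2 kinases and regulators (bottom). Points are edgeR estimates, lines are 95% intervals, dotted lines mark 1.5-fold, and colors show the call. The 5 genes at the top left, from *Trib3* to *Ddit4*, lie wholly beyond the left dotted line, *Atf5* lies beyond the right one, and *Jdp2*, *Sesn1*, *Trib2* and *Eif2ak3* are the other genes called lower.

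Dividing each gene's count by the *Atf4* count of the same library removes library size from the comparison. The log2 ratio to *Atf4* was lower in every cKO library for 6 of the other 9 members, against 35% of all other genes tested, higher in every cKO library for *Atf5*, against 21%, and overlapping for *Atf3* and *Ppp1r15a*. The *Trib3* ratio was −8.45, −8.16 and −9.24 in cKO and −4.58, −4.29 and −4.37 in control, a difference of −4.21 (−3.56 with 1 CPM added to both genes). For *Chac1* the difference was −3.30 (−2.48 with 1 CPM added), for *Asns* −2.67, for *Ddit3* −1.96 and for *Ddit4* −1.52. For *Sesn2* it was −0.34, and for *Atf5* 1.33. Exact two-sided permutation tests over libraries gave a p of 0.1 for each of these 7 genes, the smallest that 3 against 3 allows, 0.7 for *Atf3* and 0.2 for *Ppp1r15a*. None could therefore pass 0.05, and adjustment over the 9 ratios cannot lower a p.

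**Figure D3:**
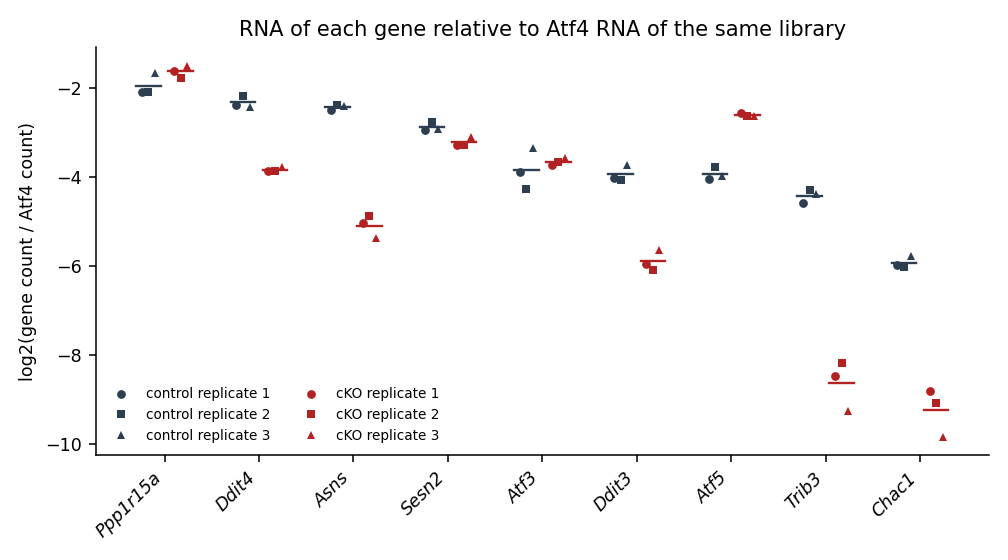
Log2 ratio of each gene's count to the *Atf4* count of the same library, with control in dark blue and cKO in red and a bar at the group mean. *Trib3* dropped from about −4.41 to −8.62 and *Chac1* from −5.92 to −9.23, while *Ppp1r15a* and *Atf3* overlap between groups.

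Levels between genes were compared per length, as CPM per kb of the main RefSeq transcript. In control the order was *Atf4* (347 ± 20.1 CPM per kb, SD, n = 3), *Ddit4* (68.6 ± 3.03), *Ppp1r15a* (67.8 ± 14.2), *Asns* (56.0 ± 1.87), *Ddit3* (44.7 ± 7.25), *Sesn2* (23.6 ± 0.315), *Atf3* (22.2 ± 7.83), *Atf5* (21.7 ± 0.790), *Trib3* (13.9 ± 0.854) and *Chac1* (6.06 ± 0.771). Library ranges of neighbors overlapped for *Ddit4* with *Ppp1r15a*, *Ppp1r15a* with *Asns*, *Sesn2* with *Atf3* and *Atf3* with *Atf5*. In cKO the order was *Atf4* (376 ± 10.7), *Ppp1r15a* (90.7 ± 6.37), *Atf5* (59.1 ± 1.24), *Atf3* (26.0 ± 1.65), *Ddit4* (25.9 ± 0.908), *Sesn2* (20.1 ± 1.53), *Ddit3* (12.5 ± 1.84), *Asns* (9.61 ± 1.80), *Trib3* (0.856 ± 0.316) and *Chac1* (0.689 ± 0.230). *Atf4* stayed first and *Chac1* last, *Atf5* moved from place 8 to place 3, and *Asns* from place 4 to place 8. In cKO the ranges overlapped for *Atf3* with *Ddit4*, *Ddit3* with *Asns* and *Trib3* with *Chac1*.

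ATF4 binds DNA with C/EBP partners at a composite element, TGATGNAA, and CREB family factors bind the full cyclic AMP response element, TGACGTCA. RefSeq promoter windows of GRCm38.p6, from 250 bases before to 50 after the start, were searched on both strands for these letters and for the ER stress element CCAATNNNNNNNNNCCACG. All 10 members matched by symbol, with 11 windows. The composite element was found in 4 members, against 3.97% of 32851 windows, the full CRE in 1, against 1.79%, and the ER stress element in none, against 0.119%. The 30 bases around each match are shown on the gene's strand with the match in capitals, because 3 of the 4 composite matches lie in genes that were lower in cKO and 1 in a gene that was not.
Trib3, minus strand, chr2:152344028-152344057: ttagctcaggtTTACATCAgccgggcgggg
Chac1, plus strand, chr2:119351038-119351067: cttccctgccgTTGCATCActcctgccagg
Asns, minus strand, chr6:7693214-7693243: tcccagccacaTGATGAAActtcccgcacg
Atf3, minus strand, chr1:191183425-191183454: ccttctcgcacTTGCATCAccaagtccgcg
Ppp1r15a, minus strand, chr7:45526262-45526291: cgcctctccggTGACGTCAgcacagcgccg

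Distances here are from the RefSeq starts, which can differ from the GENCODE gene ends given above. The *Trib3* match begins 15 bases into the RefSeq transcript, which starts at 152344060, and so lies before the GENCODE start at 152344032. It reads as the element on the opposite strand. Those of *Chac1* and *Atf3* also read on the opposite strand and begin 193 and 110 bases before the RefSeq start, that of *Atf3* inside the longer GENCODE gene. The *Asns* match is on the gene's own strand, 23 bases before the RefSeq start at 7693209 but inside the GENCODE gene, which starts at 7693254, and the palindromic CRE of *Ppp1r15a* begins 12 bases before. None of the 3 elements was found in the windows of *Atf4*, *Atf5*, *Ddit3*, *Sesn2* or *Ddit4*, so *Ddit3* and *Ddit4* fell without these letters in their windows. A match is a run of letters and no measure of binding.

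The transcript table held 13 RefSeq transcripts of the members, all tested among 18040. Of these, 5 were called lower, against 6.8% of all transcripts, and 1 was higher, against 6.26%. *Atf3*, *Trib3*, *Chac1*, *Sesn2*, *Ddit4*, *Asns* and *Ppp1r15a* had 1 transcript each. For *Atf4*, NM_009716 held 99.8% of the counts in both groups.

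The *Atf5* increase lay in 1 of its 2 transcripts, NR_033136, whose RefSeq prefix NR is that of non-coding RNA. GENCODE types both transcripts as protein coding. Whether the increase was one of coding mRNA was not tested. NR_033136 begins at chromosome 7, 44816658, and NM_030693 begins 1000 bases further into the gene at 44815658. Their first exons, 44816402 to 44816658 and 44815482 to 44815658, are non-coding in GENCODE, and both join the same exon 2 (44814989 to 44815282) and last exon, which hold the coding sequence. NR_033136 had 4809, 4894 and 4392 estimated counts in cKO and 1600, 1529 and 1449 in control (log2 fold change 1.54, SE 0.058, adjusted p of 0.000535 from edgeR). NM_030693 had 60, 34 and 63 in cKO and 133, 85 and 149 in control, with no overlap but an adjusted p of 0.064 for a log2 fold change of −1.29 (SE 0.39). It passed with DESeq2 (adjusted p of 0.018) and with edgeR on transcripts with at least 10 counts in every library (adjusted p of 0.033). The share of NM_030693 was 1.11% ± 0.377 (SD, n = 3) in cKO and 7.42% ± 2.04 in control. A test of transcript use, the change of a transcript relative to its gene, gave an adjusted p of 0.417, and none of the 6 member transcripts it covered passed, against 0.615% of all transcripts tested for use. With a filter of at least 10 counts in every library, 1 of them passed. The 100 bases before each start, on the minus strand of GRCm38.p6, are printed because the transcripts that begin there had log2 fold changes of opposite sign.
Atf5 start of NR_033136, chr7:44816659-44816758: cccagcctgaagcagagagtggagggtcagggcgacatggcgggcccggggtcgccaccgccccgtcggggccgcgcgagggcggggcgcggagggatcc
Atf5 start of NM_030693, chr7:44815659-44815758: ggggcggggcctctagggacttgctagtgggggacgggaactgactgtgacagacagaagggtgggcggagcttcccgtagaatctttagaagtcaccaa

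The stretch before the dominant start is 79% G and C and that before the minor start is 59%. In the first exon of NR_033136, 82 of the 1816 transcript bases also lie in exons of *Nup62* and *Il4i1* on the opposite strand. *Il4i1* had 349 CPM in cKO and 431 in control, and *Nup62* had 342 and 258. The part of their reads in the *Atf5* counts was not tested. Whether counting used strand is not given in the sources used here.

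*Ddit3* also has a pair of transcripts. NM_007837 had 447, 272 and 523 counts in cKO and 1682, 1231 and 1785 in control and was called lower, with a log2 fold change of −1.99 (SE 0.29, adjusted p of 0.0058 from edgeR). NM_001290183 had 22, 176 and 27 in cKO and 74, 98 and 135 in control, so that cKO replicate 2 alone lay above every control library. The gene's total in that library, 9.96 CPM, did not stand apart. The last 68 bases of the 890 in the *Ddit3* transcript overlap *Mars* on the opposite strand, which had a log2 fold change of −0.20 (adjusted p of 0.015 from edgeR, under the fold cutoff). No member shared an exact 50-base stretch with a transcript of a gene elsewhere in the genome.

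**Figure D4:**
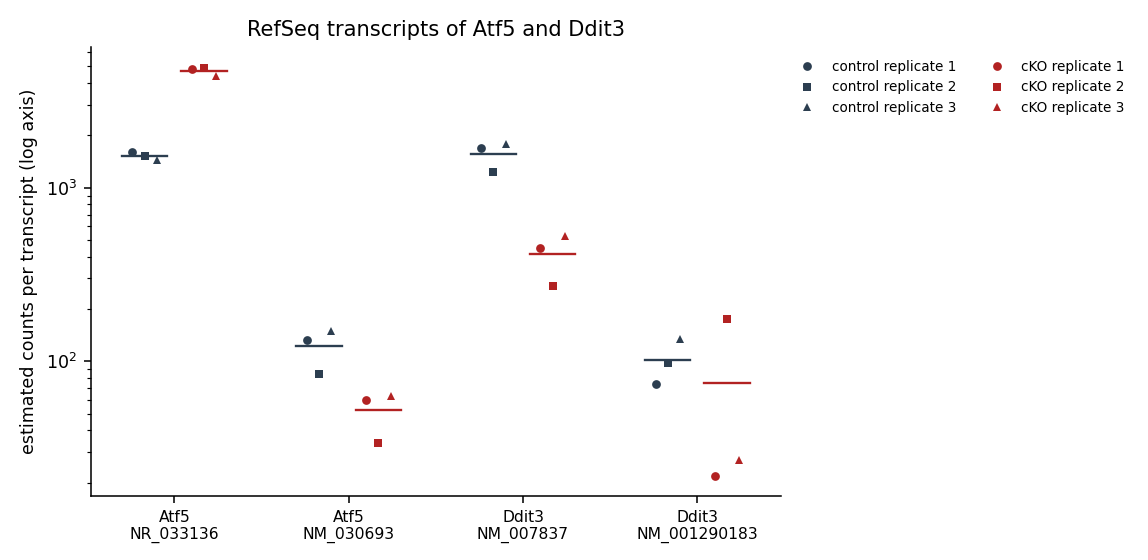
Estimated counts of the RefSeq transcripts of *Atf5* and *Ddit3* on a log axis, with control in dark blue, cKO in red and a bar at the group mean. NR_033136 of *Atf5* has 1449 to 1600 counts in control and 4392 to 4894 in cKO, and NM_001290183 of *Ddit3* is set apart by cKO replicate 2 with 176 counts.

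Relatives of the members changed in part. Of 8 tested, 3 were lower and none was higher, against 10.6% and 10.4% of all genes. The median log2 fold change was −0.29, against −0.0040 over all genes. *Jdp2*, a repressor related to *Atf3*, had 1.59, 1.36 and 0.778 CPM in cKO and 10.2, 7.02 and 7.65 in control, a log2 fold change of −2.74 (SE 0.27). *Sesn1*, a sestrin induced by p53, was also lower, by −1.04 (SE 0.094), and so was the pseudokinase *Trib2*, by −0.94 (SE 0.12). Values under the fold cutoff were −0.24 for *Sesn3*, −0.35 for *Ppp1r15b*, the constitutive counterpart of *Ppp1r15a*, and 0.25 for *Trib1*. *Chac2* and *Ddit4l* were under 2 CPM and did not pass the test, except that *Ddit4l* was called higher without cKO replicate 3, at 1.94. Within the sestrins the called decrease was thus in *Sesn1* and not in *Sesn2*, a difference between genes that was not itself tested.

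Upstream of ATF4, the eIF2 kinases did not move together. *Eif2ak3*, which encodes PERK, the sensor of unfolded proteins in the ER, had 104, 96.0 and 107 CPM in cKO and 221, 200.3 and 203 in control, a log2 fold change of −1.02 (SE 0.062, adjusted p of 1.8e-06 from edgeR). It was the 1 gene of the 9 that was called, a share close to the 10.6% of all genes called lower. The log2 fold change was 0.035 for *Eif2ak4* (GCN2, the amino acid sensor), −0.14 for *Eif2ak1* (HRI) and 0.35 for *Eif2ak2* (PKR), each with an adjusted p above 0.05 from edgeR. With 1 library left out, *Eif2ak2* ranged from 0.15 (without cKO replicate 3) to 0.51 (without control replicate 3, adjusted p of 0.025), under the fold cutoff in each case. *Impact*, an inhibitor of GCN2, had a log2 fold change of −0.58 (adjusted p of 0.0036 from edgeR), just short of the fold cutoff. It was called lower without cKO replicate 3 (−0.67) and without control replicate 1 (−0.70) or 2 (−0.59), and with *Xist* as a covariate (−0.67). *Gcn1l1*, the older symbol of the GCN2 activator Gcn1, had one of 0.27 (adjusted p of 0.0020 from edgeR), under the fold cutoff. *0610009O20Rik* (Dele1) and *Oma1*, which relay mitochondrial stress, were at −0.18 and −0.40, also under it. *Dnajc3*, an inhibitor of the kinases, did not pass the test (−0.11, adjusted p of 0.111 from edgeR). Of the 9 genes for eIF2, its exchange factor eIF2B and eIF5, none was lower and 2 were higher, against 10.6% and 10.4% of all genes. These were *Eif2b3*, with a log2 fold change of 0.95 (SE 0.12), and *Eif5*, with 0.63 (SE 0.058). Without control replicate 2 *Eif5* was at 0.56, under the cutoff, and 1 of the 9 was called, and without control replicate 3 there were 4. RNA levels do not show the phosphorylation of eIF2, which was not measured here.

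Of 12 basic leucine zipper partners of ATF4 and CHOP, 10 were tested, 2 were lower and 2 higher, against 10.6% and 10.4% of all genes. *Cebpb*, the C/EBP protein best known as partner of CHOP, fell by 1.22 on the log2 scale (SE 0.17), and *Nfe2l2*, the regulator of antioxidant genes, fell by 0.82 (SE 0.11). *Fos* rose by 2.01 (SE 0.18), with 82.6 to 115 CPM over the control libraries and 323 to 518 over the cKO libraries, and *Jun* rose by 1.17 (SE 0.15). *Cebpg*, *Atf2* and *Batf* had adjusted p-values under 0.05 below the fold cutoff, with log2 fold changes of 0.32, 0.23 and 0.25. *Atf7* had 0.21 with an adjusted p of 0.064, and *Cebpd* and *Batf3* were under 1 CPM, although *Cebpd* was called higher without control replicate 3 (2.19). *Cebpa* and *Batf2* did not pass the filter.

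Target genes of ATF4 and CHOP outside the 10 members were more often called lower than higher, and the counts here stand against 10.6% and 10.4% of all genes. Of 21 genes for amino acid uptake and synthesis, 12 were lower and none higher (median −0.74). The largest decreases were in the cationic amino acid transporter *Slc7a3*, by −2.96 (SE 0.30), and the glycine transporter *Slc6a9*, by −2.77 (SE 0.23). *Asns* was thus not alone among genes of this role. Of 13 genes for tRNA charging and export, 6 were lower and none higher (median −0.55), led by *Cars* with −1.34 (SE 0.057) and *Sars* with −1.12 (SE 0.049), the synthetases for cysteine and serine. Among 15 tested of 17 further targets, 8 were lower and 1 higher (median −0.68). The glycoprotein hormone *Stc2* changed by −2.91 (SE 0.40) and the proapoptotic *Bcl2l11* (BIM) by −1.89 (SE 0.12). The death receptor gene *Tnfrsf10b*, a target of both CHOP and p53, was the 1 that rose, by 1.10 (SE 0.13), and without cKO replicate 1 or 2 there were 2.

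Genes of the other arms of the unfolded protein response were also measured. Of 14 genes of the XBP1 and ATF6 arms, 3 were lower and none higher (median −0.18), against 10.6% and 10.4% of all genes, with *Xbp1* at −1.10 (SE 0.067) and the ER degradation factor *Edem1* at −0.78 (SE 0.061) as the largest decreases and *Ern1*, which encodes the sensor IRE1, as the third, at −0.64 (SE 0.15). *Hspa5*, the ER chaperone BiP, named after its value was seen, had a log2 fold change of 0.13 with an adjusted p of 0.199. Over the 8 lists other than the members, 99 of 103 genes were tested, of which 35 were lower and 5 higher (8 without control replicate 3), with a median of −0.36, against the same 10.6% and 10.4% of all genes. Like the members, these lists were chosen with earlier results known.

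**Figure D5:**
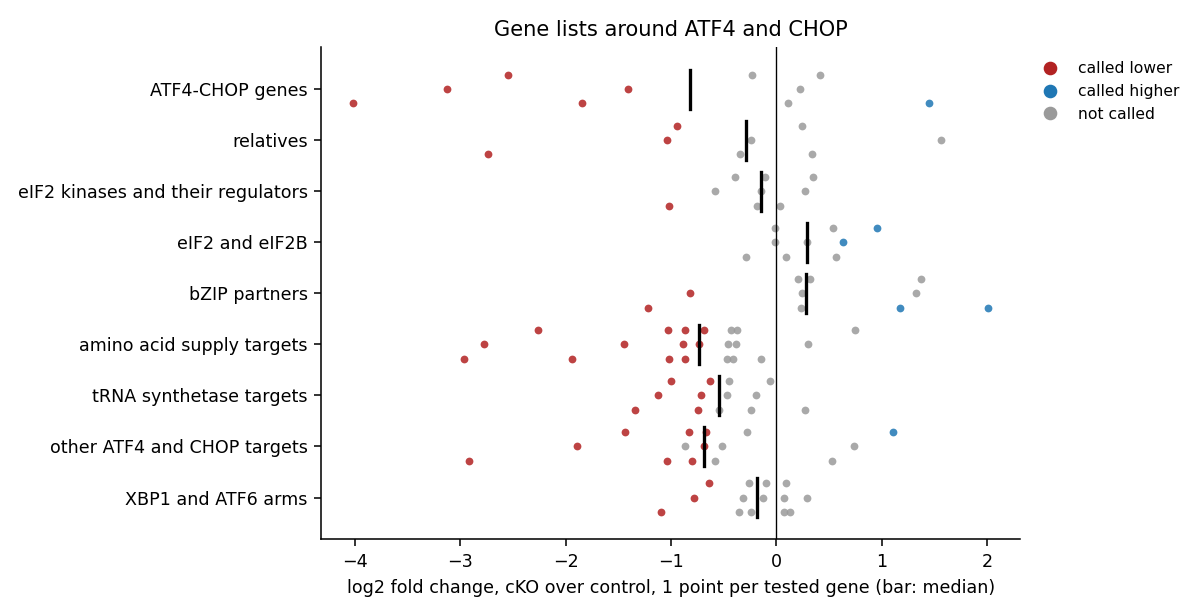
Log2 fold change of cKO over control for each tested gene of the ATF4-CHOP genes and 8 lists around them, colored by call, with a black bar at each list's median. The amino acid supply, tRNA synthetase and other target lists have medians of −0.74, −0.55 and −0.68 and hold 12, 6 and 8 of the 35 genes called lower, and the medians of eIF2 and eIF2B and of the bZIP partners are above 0.

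Markers of germinal center B cells and of plasma cells also differed between groups. The summed level of 5 germinal center markers was 261 to 274 CPM in cKO and 305 to 356 in control, with none of them at 0. That of 7 plasma cell markers was 960 to 1129 CPM in cKO and 1326 to 1387 in control. Of the 6 tested, 4 were lower and 1 higher, against 10.6% and 10.4% of all genes. The lower ones were *Jchain* (−4.00), *Prdm1* (−1.13), *Xbp1* (−1.10) and *Mzb1* (−0.62), and the higher one was *Sdc1* (1.60). The sum of 6 myeloid markers was 4.08 to 6.06 CPM in cKO and 1.22 to 2.45 in control, most of it *Adgre1* (4.61 ± 0.953 and 1.18 ± 0.735 CPM, SD, n = 3). *Itgam* had a log2 fold change of −1.08 that did not pass the test, and *Lyz2*, *Csf1r*, *Cd14* and *Mpo* had at most 15 counts in any library and were not tested. The part of these shifts in the members' changes was not tested.

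Over the 6 libraries, the genes with the profiles most like *Trib3* were *Zfp965*, *Jchain*, *Grhl2*, *Chac1* and *Dlec1*. Their root mean square distances, in log2 CPM centered on each gene's mean, ran from 0.396 to 0.515. *Zfp965*, *Grhl2* and *Dlec1* were at 0 counts in every cKO library and at 0.465 to 0.570 CPM in control, so they passed the filter through control alone, and their distances depend on the count added before taking logs and say nothing of likeness to *Trib3* in cKO. *Jchain*, the joining chain of secreted IgM and IgA, had 9.94, 5.98 and 5.82 CPM in cKO and 138, 125 and 86.2 in control. The nearest to *Atf5* were *Mettl13*, *Fam212a*, *Cad*, *Nsun5* and *Ftsj3*, at distances of 0.0710 to 0.0857. Since they were picked for this likeness, a rise in cKO by a similar fold was fixed by the choice. The log2 fold change was 1.34 for *Mettl13* and 1.46 for *Cad*, for example. *Cad* makes pyrimidines, and *Nsun5* and *Ftsj3* modify ribosomal RNA. A shared role of these genes was not tested.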

How the data were processed

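Estimated counts per gene and per transcript were deposited by the authors. Per the labels and the study's methods, clean reads were mapped with HISAT2 to mm10, assembled with StringTie and turned into counts with StringTie's prepDE script, which derives them from coverage, so totals are not numbers of fragments. Tool versions, read length and the strand setting are not given in the sources used here, and the protocol names both stranded and unstranded steps. Groups came from the labels, and 0 value columns lacked a sample. The study describes its RNA-seq groups as 3 biological replicates, and p-values measure the spread between these.

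Counts, whole as deposited, were filtered with filterByExpr at a minimum of 10, scaled by TMM and tested with edgeR 4.0.16 (R 4.3.3) by the quasi-likelihood test, with Benjamini-Hochberg adjustment over all 13296 genes, or over 18040 transcripts (34674 of 36026 matched to a gene). A change was called at an adjusted p under 0.05 and a fold over 1.5. SE is the log2 fold change over the square root of F. Transcript use was tested with edgeR's splicing test, in its quasi-likelihood form. The fits were tested on simulated data. Locations, exons and transcript lengths came from GENCODE M21 (GRCm38) and promoters from RefSeq (GRCm38.p6).

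The members and lists were chosen with earlier results of these data known. All members, their relatives, eIF2 kinases and bZIP partners could be named, plus up to 2 decreases and 2 increases of each other list past both cutoffs and the 5 nearest profiles of *Trib3* and *Atf5*; other names were chosen after their values were seen. Alternatives were DESeq2 1.42.0, its size factors or total counts in edgeR, 2 other filters, counts divided by 2, no immunoglobulin genes, *Xist* as a covariate, a replicate block, a test against 1.5-fold, 1 CPM added to the ratios, and each library left out.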

Additional observations from a re-analysis of the deposited data

How the results depend on the processing

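*Trib3*, *Chac1*, *Asns*, *Ddit3* and *Ddit4* stayed called lower and *Atf5* called higher in all 15 alternatives. With each library left out in turn, 1 to 2 members, 1 to 2 member transcripts and 4 to 8 genes of the 8 lists were called higher, and 1 to 3 log2 ratios to *Atf4* were higher in every cKO library. With at least 10 counts in every library, 1 member transcript changed in use. With 1 library left out, the log2 fold change of *Atf3* ranged from −0.0044 (without control replicate 2) to 0.52, the difference in its log2 ratio to *Atf4* from −0.043 (without control replicate 2) to 0.42, and the log2 fold change of *Eif2ak4* from −0.0022 (without cKO replicate 1) to 0.075. The cause was not tested. The adjusted p of *Sesn2* reached 0.057 and that of *Ppp1r15a* 0.071. NM_030693 of *Atf5* passed the test with DESeq2 (adjusted p of 0.018) and with at least 10 counts in every library (0.033). Adding 1 CPM to both genes left differences of −3.56 for *Trib3* and −2.48 for *Chac1* in the ratio to *Atf4*. Deviations of same-numbered libraries correlated at 0.0085, 0.084 and 0.13, and those of differently numbered ones at −0.17 to 0.10. Not all same-numbered values were above 0.1, so the numbers were not taken to pair libraries in the main fit. These values cannot settle whether the libraries were paired. The study used paired tests for proliferation, death and surface proteins of its iGCBs. The replicate block gave *Eif2ak2* an adjusted p of 0.0056 (log2 fold change 0.34, under the fold cutoff), 5 members lower and 1 higher, 8 with an adjusted p under 0.05, and 37 genes of the 8 lists lower and 5 higher. Tested against 1.5-fold itself, 580 genes were lower and 584 higher, against 1415 and 1378 by the cutoffs. Other scalings moved the median of all genes by less than 0.01. The 30 to 105 counts of *Chac1* and *Trib3* per cKO library, with 3 libraries a group, limit the precision of their folds.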
